A study of Mus musculus with 32 samples.

Results

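The sarcomeric myosin light chains are described here from a bulk RNA-seq time course of the tibialis anterior (TA), a fast hindlimb muscle, in wild-type and Mtm1 knockout mice. The 6 genes were taken by name: Myl1, Myl3, Myl4 and Myl6b, which encode essential (alkali) chains, and Mylpf and Myl2, which encode regulatory (phosphorylatable) chains. They are 6 of the 54838 genes in the table of expected counts, and all 6 were tested in every comparison. Each myosin head carries 1 essential and 1 regulatory chain on its neck, the lever that swings when the head pulls on actin. The essential chains stabilise that lever, and the regulatory chains tune force when myosin light chain kinase phosphorylates them. Fibres exchange isoforms as they mature: Myl4, an embryonic skeletal and atrial chain, is normally replaced after birth, Myl1 and Mylpf serve fast fibres, and Myl3 and Myl2 serve slow fibres and the heart ventricle.

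Mtm1 encodes myotubularin, a phosphoinositide phosphatase, and its loss causes an X-linked centronuclear myopathy. All mice were on the C57BL6/J strain background. WT and Mtm1 KO muscle was compared at postnatal day 1 (P1), P14, P21 and P35, with 4 libraries of each genotype at each age, 32 in all. The KO line carries a germline deletion in exon 4 of Mtm1 and is not limited to muscle. The labels give no animal for each library, so the p-values measure only the spread between these libraries. Depth ranged from 49321035 to 85631408 expected counts per library, and the 6 genes together took 1.13% to 2.44% of each. Mtm1 itself was lower in KO at every age, by 0.98 (log2) at P1 (adjusted p = 0.0669, not past the threshold), 2.34 at P14, 2.71 at P21 and 2.56 at P35, and its highest KO library lay below its lowest WT library at each age. Skeletal actin (Acta1), a gene of the fibre itself, was at 33291 ± 3828 CPM (counts-per-million, TMM-scaled, SD, n = 4) in WT at P35. Of 6 cardiomyocyte markers, listed because the heart shares several of these chains, Nppa, Nppb and Myl7 reached at most 0.0819, 0.0891 and 0.392 CPM in any library. Myh6, the alpha cardiac heavy chain, was present, from 3.32 to 24.5 CPM, and the 6 markers summed to 3.79 to 26.4 CPM. At P35 that sum was 6.18 to 9.72 CPM in KO and 3.79 to 16.4 in WT. The part of these markers in the light chain values was not tested.

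The sequence immediately before the RefSeq start of each gene (250 bases, GRCm38.p6) is shown for the 4 chains on which the results turn and for Myl3, because Myl1 and Mylpf rose together after birth and Myl4 and Myl6b were both higher in KO from P21 on. Capitals mark letters that match an E-box (CANNTG, bound by myogenic helix-loop-helix factors), an M-CAT element (CATTCC, bound by TEAD factors) or a CArG box (bound by Srf). Both strands were searched, MEF2 elements were searched too, and no matches overlapped.
Myl1, chr1:66945057-66945306, minus strand: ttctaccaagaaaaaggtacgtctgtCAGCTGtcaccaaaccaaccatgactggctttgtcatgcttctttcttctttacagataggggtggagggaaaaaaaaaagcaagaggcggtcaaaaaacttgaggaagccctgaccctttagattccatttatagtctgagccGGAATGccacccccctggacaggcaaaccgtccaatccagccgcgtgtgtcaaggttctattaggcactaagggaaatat
Mylpf, chr7:127211358-127211607, plus strand: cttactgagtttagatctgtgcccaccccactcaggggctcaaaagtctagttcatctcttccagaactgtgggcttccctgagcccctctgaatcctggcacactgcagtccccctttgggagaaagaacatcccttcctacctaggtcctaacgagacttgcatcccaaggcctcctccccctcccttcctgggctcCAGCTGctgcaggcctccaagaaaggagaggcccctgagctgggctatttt
Myl4, chr11:104550413-104550662, plus strand: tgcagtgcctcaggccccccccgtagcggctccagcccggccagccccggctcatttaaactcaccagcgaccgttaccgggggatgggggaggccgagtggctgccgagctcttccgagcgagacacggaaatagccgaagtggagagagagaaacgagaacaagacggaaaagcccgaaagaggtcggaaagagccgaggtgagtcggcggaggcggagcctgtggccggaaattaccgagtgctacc
Myl6b, chr10:128498686-128498935, minus strand: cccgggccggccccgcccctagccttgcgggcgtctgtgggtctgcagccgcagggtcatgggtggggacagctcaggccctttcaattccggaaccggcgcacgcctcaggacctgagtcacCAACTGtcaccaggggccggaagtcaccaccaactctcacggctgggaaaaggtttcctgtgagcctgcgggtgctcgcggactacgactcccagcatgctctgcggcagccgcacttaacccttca
Myl3, chr9:110763428-110763677, plus strand: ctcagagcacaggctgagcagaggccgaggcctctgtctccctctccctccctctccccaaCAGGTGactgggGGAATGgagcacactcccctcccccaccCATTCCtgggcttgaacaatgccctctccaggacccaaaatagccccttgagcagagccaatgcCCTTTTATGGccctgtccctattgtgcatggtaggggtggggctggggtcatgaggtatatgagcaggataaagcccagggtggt

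The fast pair had 1 E-box each, beginning at -224 in Myl1 and at -51 in Mylpf (counted back from the start), and Myl1 also had an M-CAT element at -80. Myl6b had 1 E-box at -127, the Myl4 window had no match, and Myl3 had an E-box, 2 M-CAT elements and a CArG box at -85. An E-box was present in 66.2% of all 32851 windows of this length, an M-CAT element in 12.6%, a MEF2 element in 2.92% and a CArG box in 1.47%. These are letter matches and not binding sites. The Myl1 window lies at its distal starts, and the Myl1 transcripts that start near chr1:66935354 have no window. The Myl4 window belongs to the most distal of several annotated starts. The 2 Myl2 windows of RefSeq lie 7762 and 8227 bases from the nearest Myl2 start in the GENCODE annotation, so Myl2 is not printed.

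In the same annotation (GRCm38), Myl1 occupies chr1:66924295-66945404 and its counts merge the MLC1f and MLC3f transcripts, which start far apart in the gene. Myl3 occupies chr9:110741861-110769798, and some of its exons overlap Pth1r on the opposite strand. Myl4 lies at chr11:104550663-104595753, Myl6b at chr10:128494157-128498685, Mylpf at chr7:127208890-127214298 and Myl2 at chr5:122100951-122113472, where exons overlap Ccdc63 on the opposite strand. The library kit kept strand, but whether the counting used it is not stated. Ccdc63 reached at most 0.181 CPM in any library. Pth1r ranged from 24.6 to 37.4 CPM at P1 and from 1.33 to 11.9 CPM later, and its part in the Myl3 counts was not tested. Of all 50-base stretches in its transcripts, Myl1 shared 11.7% with the pseudogene Mylf-ps, and the other members shared at most 2.46% with any gene, in either orientation.

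Per kilobase of exon, the fast pair stood far above the rest at every age and in both genotypes. At P35, the WT level was 10843 ± 2122 CPM per kilobase (SD, n = 4) for Mylpf and 6247 ± 1211 for Myl1, against 39.0 ± 25.6 for Myl3, 4.63 ± 2.27 for Myl2, 2.59 ± 0.473 for Myl6b and 1.70 ± 0.782 for Myl4. In Mtm1 KO at P35 the fast pair still led, with 7874 ± 1252 for Mylpf and 4878 ± 494 for Myl1. Below it the order was Myl2 with 81.3 ± 44.6, Myl3 with 37.8 ± 8.71, Myl6b with 19.3 ± 6.33 and Myl4 with 14.3 ± 8.21 CPM per kilobase. The libraries of Myl3 and Myl2 overlapped in this order in every group but KO P14, and those of Myl6b and Myl4 overlapped at P35 in both genotypes. At P1, Myl4 came next after the fast pair in both genotypes, with 53.5 ± 6.19 in WT and 52.5 ± 6.10 in KO, but its libraries overlapped those of Myl2 in WT, and with the longest transcript as the length Myl2 ranked above it there. From P14 on Myl4 was last. Myl4 has a long retained-intron transcript that lengthens its exon union: with the longest protein-coding transcript as the length, a choice added after seeing the data, Myl4 ranked above Myl6b at P35 in both genotypes.

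The WT time course shows which chains fell and which rose, with the fast pair already the highest at P1. In bulk RNA, fewer cells or fibres of a type and less RNA in each cannot be told apart. Marker sums shifted as well. In WT, keratinocyte markers summed to 1874 to 5987 CPM at P1 and 2.95 to 3.72 at P14. Mean fibroblast sums were 8557 and 3382 CPM, and mean muscle fibre sums were 24417 and 61529 CPM. The median log2 fold change of the fibre markers was 1.95. KO sums moved the same way. The part of these shifts in the age steps was not tested. Myl1 rose from a mean of 4201 ± 547 CPM at P1 to 13755 ± 1761 at P14 (log2 fold change 1.69, SE 0.169, edgeR quasi-likelihood adjusted p = 1.66e-07). Mylpf rose from 4032 ± 537 to 11936 ± 1588 CPM (1.55, adjusted p = 5.95e-07). Neither changed past the threshold after P14 in either genotype. That threshold, used for every comparison of 2 groups, was an adjusted p under 0.01 together with a change of more than 1.5-fold.

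Myl4 fell in WT muscle in 2 steps. Its 4 libraries stood at 222, 282, 227 and 262 CPM at P1, at 16.3, 15.4, 15.2 and 13.6 at P14, and at 3.41, 5.19, 6.26 and 5.20 at P21. The fall between P1 and P14 was 4.05 on the log2 scale (log2 fold change -4.05, SE 0.240, adjusted p = 4.85e-10), and that between P14 and P21 was -1.58 (adjusted p = 1.82e-04). Myl4, Myl1 and Mylpf were the 3 of 6 chains called between P1 and P14, when 54.2% of all genes tested were called. Myl6b, at 51.7 ± 5.11 CPM at P1 and 31.7 ± 4.46 at P14 (-0.72, adjusted p = 0.0129), narrowly missed the threshold. It passed in DESeq2 (adjusted p = 0.00476), with RLE factors, library totals, no filter or at least 10 counts in every library, in the fits of all 32 libraries and of the 2 ages only, and without WT P21 replicate 1 or 3. Between P14 and P21, when 7.13% of genes were called, Myl4 and Myl6b were the 2 that fell.

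Besides Myl4, Myl6b and Myl2 passed the threshold after P14. Myl6b fell from 31.7 ± 4.46 CPM at P14 to 10.6 ± 4.95 at P21 (log2 fold change -1.57, adjusted p = 3.84e-04) and to 4.79 ± 0.873 at P35 (-1.16, adjusted p = 0.00736). The second Myl6b step missed the threshold in 9 of the 16 fits that left out 1 WT library of any age: replicates 1, 2 or 4 of P1, 1 of P14, 3 or 4 of P21, and 1, 2 or 4 of P35, with a largest adjusted p of 0.0259. Myl2 had 20.6, 33.6, 49.98 and 99.3 CPM at P21, a wide spread, and 5.04, 15.1, 9.28 and 6.66 at P35, below every P21 library (-2.502, SE 0.398, adjusted p = 7.31e-04). Its step between P14 and P21 (-1.06, adjusted p = 0.0444) passed only without WT P21 replicate 4 (-1.60, adjusted p = 0.00237). Between P21 and P35, 3.80% of genes were called. Myl3 passed the threshold at no step in WT, although leaving out WT P35 replicate 1 brought its step between P1 and P14 past it (0.70, adjusted p = 0.00105), as did the fit of those 2 ages only (0.70, adjusted p = 1.11e-04).

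**Figure D1:**
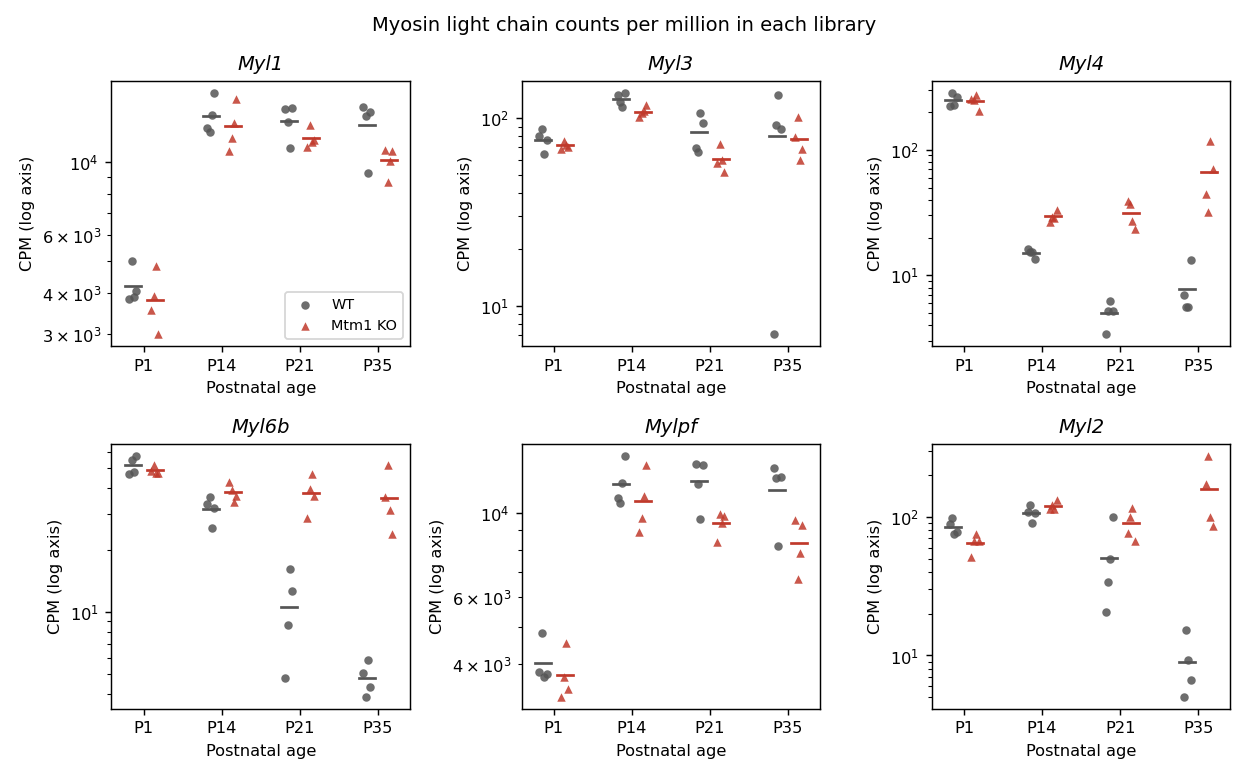
CPM (log axis) of the 6 light chain genes in each of the 32 libraries by postnatal age, with WT as circles, Mtm1 KO as triangles and group means as bars. Myl4, Myl6b and Myl2 separate between genotypes at P35, Myl4 from P14 on, while Myl1, Mylpf and Myl3 overlap at every age, and 1 WT library at P35 holds 7.08 CPM of Myl3.

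In Mtm1 KO the fast pair rose in the same window, Myl1 by 1.71 (adjusted p = 2.56e-07) and Mylpf by 1.49 (adjusted p = 1.16e-06) between P1 and P14, and Myl4 fell by 3.09 on the log2 scale (adjusted p = 2.18e-07). These were 3 of 6 chains where 52.9% of all genes were called. After P14 the fall of Myl4 and Myl6b was not seen. KO Myl4 was at 29.4 ± 2.66 CPM at P14 and 31.6 ± 7.55 at P21 (log2 fold change 0.0939, adjusted p = 0.856), and KO Myl6b was at 38.0 ± 3.56, 37.8 ± 7.45 and 35.6 ± 11.7 CPM at P14, P21 and P35. The 1 member called between P14 and P21 in KO, when 7.46% of genes were called, was Myl3, which fell from 108 ± 6.80 to 60.3 ± 8.79 CPM (-0.85, adjusted p = 4.62e-04). From P21 to P35 no KO chain passed the test in edgeR, where 4.81% of genes were called. Myl4, Myl2 and Myl3 had log2 fold changes of 1.07, 0.82 and 0.36, each with an unadjusted p under 0.05. At an adjusted p under 0.05 with no fold threshold, Myl4 and Myl2 passed, as did 3858 of the 17987 genes tested. DESeq2 called 1, Myl4, as did edgeR without KO P35 replicate 2 (1.32, adjusted p = 0.00239). Between P1 and P14, Myl2 (0.84, adjusted p = 0.0131) and Myl3 (0.56, adjusted p = 0.00117) missed the p or the fold threshold, and both passed when 1 library was left out: KO P35 replicate 2, 3 or 4 for Myl2 (0.84 to 0.85, adjusted p from 0.00145 to 0.00828), and KO P1 replicate 2 or KO P14 replicate 1 for Myl3 (0.59 and 0.60). Myl2 also passed in DESeq2 (adjusted p = 0.00434) and in the fit of the 2 ages only (1.46e-04).

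Comparing the genotypes directly, few genes differed at the early ages. At P1 none of the 6 chains was called by edgeR, against 0.0442% of all 18100 genes tested, and DESeq2 called none. The libraries of WT and KO overlapped for every chain, while for 8.62% of all genes they did not. At an unadjusted p under 0.05 there was 1, Myl2 (-0.37, adjusted p = 0.343). At P14 Myl4 alone of the 6 was called, higher in KO, as were 0.0254% of genes. Its KO libraries held 26.7, 29.1, 28.8 and 33.1 CPM against 16.3, 15.4, 15.2 and 13.6 in WT, so every KO library lay above every WT library. The genotypes failed to overlap for 4.84% of all genes at this age. The log2 fold change was 0.96 (SE 0.082, adjusted p = 0.00460). The size of this difference changed little in any fit, from 0.89 to 1.03, but its call was fragile: it missed the threshold without WT P14 replicate 1, 2, 3 or 4 or KO P14 replicate 2 or 3 (adjusted p from 0.0187 to 0.0398), with library totals in place of TMM scaling (0.0128), and in a fit of all 32 libraries at once (0.388). The other 5 chains differed by -0.22 (Myl3) to 0.26 (Myl6b) at P14.

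At P21 Myl4 and Myl6b were called, both higher in KO, as were 3.18% of all genes. Myl4 had 39.1, 36.8, 27.1 and 23.3 CPM in KO against 3.41, 5.19, 6.26 and 5.20 in WT, without overlap. The KO mean was 6.30 times that of WT (log2 fold change 2.66, SE 0.220, adjusted p = 1.62e-04). Myl6b had 28.5, 39.4, 46.6 and 36.6 CPM in KO against 4.79, 8.61, 16.2 and 12.6 in WT, again without overlap (1.85, SE 0.326, adjusted p = 0.00487). The genotypes failed to overlap for 24.7% of all genes at P21. The Myl6b call was lost without WT replicate 2 or KO replicates 2, 3 or 4 (adjusted p from 0.0127 to 0.0167). Myl2 was at 89.6 ± 21.6 CPM in KO and 50.9 ± 34.5 in WT (0.83, adjusted p = 0.184), the WT spread being set by replicate 4, without which the difference was 1.37 (adjusted p = 0.0176). Myl3 (-0.46, adjusted p = 0.0826), Mylpf (-0.35, adjusted p = 0.0680) and Myl1 (-0.16, adjusted p = 0.338) did not pass.

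At P35 3 of the 6 chains were called, Myl4, Myl6b and Myl2, all higher in KO, as were 8.49% of all 15595 genes tested. Myl2, the slow regulatory chain, held 174, 276, 98.9 and 86.1 CPM in the 4 KO libraries against 5.04, 15.1, 9.28 and 6.66 in WT. Every KO library exceeded every WT library, and the mean ratio was 17.6. The log2 fold change was 4.16 (SE 0.469, adjusted p = 2.32e-04). KO replicates 1 and 2 were the highest, and without KO replicate 2 the difference was 3.74 (adjusted p = 3.37e-04 by edgeR).

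Myl4 held 44.7, 31.96, 118 and 70.7 CPM in KO at P35 against 6.98, 5.64, 5.60 and 13.2 in WT (log2 fold change 3.10, SE 0.440, adjusted p = 6.61e-04). Here KO replicate 3 was highest, and it was KO replicate 2, the highest library for Myl2 and Myl6b, that was lowest for Myl4. Without KO replicate 3 the Myl4 difference was 2.66 (adjusted p = 0.00133). Myl6b held 36.1, 51.4, 31.2 and 23.8 CPM in KO against 5.09, 3.89, 5.86 and 4.31 in WT (2.92, SE 0.241, adjusted p = 7.39e-05). The 3 chains kept their call and their direction in every alternative and in every fit without 1 library. For 39.6% of all genes the 2 genotypes did not overlap at P35.

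The fast pair did not pass at P35. Mylpf was at 8363 ± 1329 CPM in KO and 11516 ± 2254 in WT (-0.44, adjusted p = 0.0879), and Myl1 at 10117 ± 1025 and 12957 ± 2513 (-0.33, adjusted p = 0.152). Their small differences depended on the scaling: with library totals in place of TMM, which moved the median of all genes at P35 from 0.0352 to 0.44, Myl1 was 0.0711 and Mylpf was -0.0357, both below that median. Myl3 was the slow chain that did not follow Myl2. Its 4 KO libraries held 79.3, 101, 60.1 and 68.5 CPM, and the WT libraries held 7.08, 92.1, 132 and 87.5. The log2 fold change was -0.0180 with an SE of 0.612 (adjusted p = 0.984). Without WT replicate 1, the library at 7.08, it was -0.41 (adjusted p = 0.148).

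**Figure D2:**
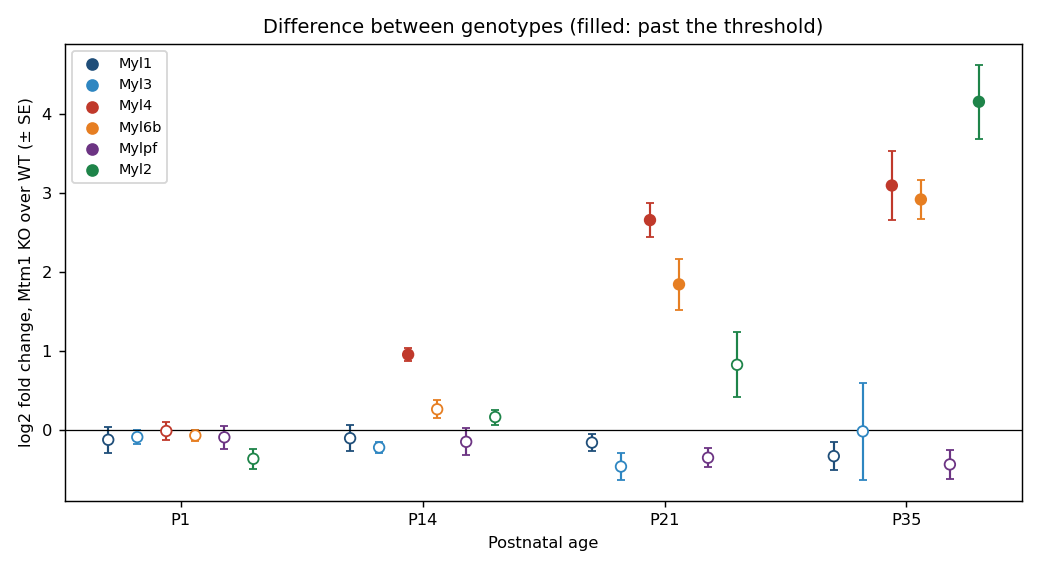
Log2 fold change of Mtm1 KO over WT (edgeR, bars ± SE) for the 6 light chains at each age, with filled points past the threshold (adjusted p under 0.01 and more than 1.5-fold). Myl4 is filled from P14 on, Myl6b from P21 on and Myl2 at P35 only, where its value is 4.16, and Myl1, Myl3 and Mylpf are open at every age.

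Whether the genotype difference itself changed from one age to the next was tested as an interaction over all 32 libraries, with an adjusted p under 0.01 as the threshold. Between P1 and P14 no chain passed, against 0.0161% of genes: Myl4 had an unadjusted p of 0.0151 (difference 0.99, adjusted p = 0.662), the other 5 had one above 0.05, and DESeq2 also called none. Between P14 and P21 the difference grew for Myl6b by 1.57 (SE 0.324, adjusted p = 0.00962), where 0.377% of genes passed in that direction. That call was at the edge: it was lost in 27 of 32 fits without 1 library, with a largest adjusted p of 0.0246, and with the replicate block (0.0158). Myl4 grew by 1.70 in the same window (adjusted p = 0.0240) and passed in DESeq2 and without KO P35 replicate 2 or 3 (0.00863 and 0.00741). Between P21 and P35 the Myl2 difference grew by 3.32 (SE 0.507, adjusted p = 6.73e-04), where 0.151% passed in that direction, and kept its call in every fit without 1 library. In a fit of the P21 and P35 libraries only, its adjusted p was 0.0247.

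A share within a library is free of the scaling between libraries. The essential pool was defined as the summed CPM per kilobase of Myl1, Myl3, Myl4 and Myl6b, and the regulatory pool as that of Mylpf and Myl2. The shares are given as a description, without a test. Myl1 held 94.4 ± 0.347% of the essential pool in WT at P1, and 99.2 ± 0.583% at P35. In KO at P35 it held 98.5 ± 0.357%. The Myl4 share in WT was 2.5004 ± 0.144% at P1, 0.0494 ± 0.00900% at P14 and 0.0269 ± 0.0103% at P35. In KO it was 2.72 ± 0.255%, 0.102 ± 0.00776% and 0.287 ± 0.163%, so at P35 Myl4 was above its WT share but still far below its share at birth. The shares depend on the length used. With the longest protein-coding transcript as the length, Myl4 held 6.16% and Myl1 90.7% in WT at P1. For Myl4 at P35 that length gave 0.0689% in WT and 0.732% in KO.

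Myl6b held 0.402 ± 0.176% of the essential pool in KO at P35 and 0.0436 ± 0.0180% in WT. At P1 it had held 1.39 ± 0.252% in KO and 1.31 ± 0.132% in WT, and at P14 0.338 ± 0.0790% and 0.260 ± 0.0579%, where the genotypes overlapped. In the regulatory pool, Myl2 held 1.14 ± 0.0808% in WT at P1 and 0.0447 ± 0.0230% at P35. In KO at P35 its 4 libraries held 0.979%, 2.19%, 0.680% and 0.501%, a mean of 1.09 ± 0.760%, beside 0.942 ± 0.0925% in KO muscle at P1. Myl3 held 0.780 ± 0.260% of the essential pool in KO and 0.694 ± 0.567% in WT at P35.

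**Figure D3:**
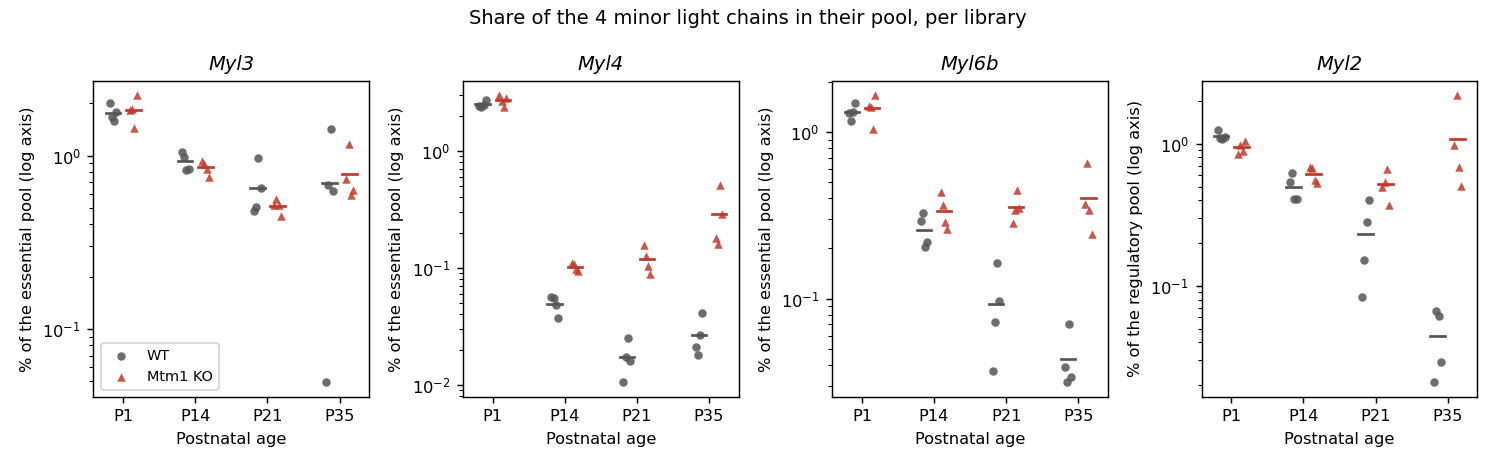
Share of Myl3, Myl4 and Myl6b in the essential pool and of Myl2 in the regulatory pool (percent, log axis) in each library by age, with WT as circles, Mtm1 KO as triangles and group means as bars. WT shares of Myl4, Myl6b and Myl2 are lower at P35 than at P1, and at P35 all 4 KO libraries lie above all 4 WT libraries for these 3 chains but not for Myl3.

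The partners of the light chains were counted in gene lists. Of 9 slow fibre genes, which held no light chain, 7 were higher and none lower in KO at P35, with a median log2 fold change of 2.40 against 0.0352 over all genes tested. Tnni1 (4.50, adjusted p = 1.19e-05), Tnnt1 (4.403, adjusted p = 4.92e-05) and Tnnc1 (4.36, adjusted p = 8.97e-05), the slow troponin subunits, and Tpm3 (1.61, adjusted p = 9.56e-05), slow tropomyosin, had the smallest p-values. At P21 1 of the 9 was higher, Csrp3 (1.85, adjusted p = 0.00606), a protein of the sarcomere's Z-disc. Of 11 fast fibre genes none was called at P35 by edgeR, 5 had an unadjusted p under 0.05, and the median was -0.50.

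Of 9 sarcomeric myosin heavy chains, the proteins to which the light chains bind, 3 were higher at P35. They were Myh3 (4.16, adjusted p = 7.01e-05), the embryonic chain, Myh7 (5.49, adjusted p = 8.74e-04), the slow chain, and Myh8 (1.72, adjusted p = 0.00808), the perinatal chain. At P21 none was higher and Myh13 was lower (-1.03, adjusted p = 0.00530). Of 4 developmental sarcomere genes, Myh3, Myh8 and Tnnt2 (2.18, adjusted p = 1.12e-04), cardiac troponin T, were higher at P35. Actc1, cardiac actin, which is also an embryonic skeletal actin, was lower (-2.78, adjusted p = 0.00334), against the direction of Myl4. Of these 4 genes 0 were called at P14, and 1 was higher and 1 lower at P21. Their median log2 fold change was 0.81 at P14 and 0.84 at P21. Their summed level was 3439 to 3983 CPM in KO and 4322 to 6214 in WT at P14. At P21 it was 381 to 648 CPM in KO and 2579 to 9346 in WT.

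Of 13 genes that set the phosphorylation of the regulatory chains, 1 was higher and 5 were lower in KO at P35, and none was called by edgeR at P21, where 8 had an unadjusted p under 0.05. Their median log2 fold change was -0.26 at P21 and -0.21 at P35, against 0.00825 and 0.0352 over all genes tested. Mylk2, the skeletal muscle light chain kinase, was at 412 ± 63.8 CPM in KO and 814 ± 141 in WT (-0.96, adjusted p = 0.00119). Ppp1cb, the catalytic subunit of myosin phosphatase, fell as well (-0.60, adjusted p = 5.45e-04). Also lower, and named after their values were seen, were Mylk4 (-1.76, adjusted p = 0.00301) and Calm3 (-0.86, adjusted p = 0.00251). Mylk3, the cardiac kinase, rose (2.24, adjusted p = 0.00102) from 0.291 ± 0.162 to 1.36 ± 0.203 CPM, far below Mylk2.

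Of 6 other light chain genes, which serve smooth muscle, nonmuscle cells and the atrium, 5 could be tested, and Myl12a, a nonmuscle regulatory chain, was higher at P21 (0.74, adjusted p = 0.00442) and P35 (0.89, adjusted p = 0.00309). Of 12 genes for myosin folding and thick filament assembly, 10 could be tested. At P35 Myom3 was higher (3.0002, adjusted p = 9.93e-04) and Mybpc2 (-1.20, adjusted p = 0.00269) and Myom1 (-0.60, adjusted p = 0.00149) were lower. At P21 Mybpc2, fast myosin binding protein C, was the 1 called (-0.91, adjusted p = 0.00968). Of 15 muscle transcription factors, 4 were higher at P21 and at P35, Myog, Myf6, Mef2c and Tead4. Myog, which drives myoblast fusion genes and rises in denervated fibres, was higher by 2.35 (adjusted p = 3.23e-04) and Sox6, a repressor of slow fibre genes, was lower by -0.87 (adjusted p = 3.64e-04) at P35.

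Markers of other cell types also moved with genotype. At P21, 1 of 4 macrophage markers was called higher in KO (Cd68), with a summed level of 31.3 to 40.8 CPM against 21.3 to 24.9 in WT. No endothelial marker of 4 was called by edgeR at P21, 3 had an unadjusted p under 0.05, and their sum was 399 to 485 CPM in KO and 514 to 782 in WT. Pax7, of the 4 satellite cell and myoblast genes, was lower (-0.91), while the sum of the 4 was 61.3 to 87.0 CPM in KO and 50.9 to 65.7 in WT. The 5 markers of the muscle fibre itself summed to 57374.2 to 62642.5 CPM in KO and 67531.2 to 87302 in WT, and 1 was called, higher in KO. Mitochondrially encoded genes took 8.21% to 8.78% of counts in KO and 9.75% to 11.99% in WT at P21. At P35, 3 of 4 adipocyte markers were higher in KO, with a summed level of 12.7 to 48.3 CPM against 1.98 to 8.35 in WT. Macrophage markers were higher for 2 of 4 (26.6 to 42.8 against 18.9 to 24.5 CPM). Endothelial markers were lower for 2 of 4 (255 to 322 against 293 to 552 CPM). No Schwann cell marker of 4 was called by edgeR, all 4 had an unadjusted p under 0.05, and their sum ranged from 204 to 860 CPM in KO and 46.7 to 394 in WT. Pax7 was again lower (-1.43), while the sum of the 4 satellite cell and myoblast genes was 46.8 to 67.8 CPM in KO and 43.2 to 54.8 in WT. Of 5 markers of the muscle fibre itself, Des was higher (0.78) and Acta1 lower (-0.76). Their sum was 38227 to 46549 CPM in KO and 57757 to 72198 in WT. The median log2 fold change of the 5 was -0.63 against 0.0352 over all genes. Mitochondrially encoded genes took 10.3% to 10.5% of counts in KO and 12.4% to 17.9% in WT at this age. The part of these shifts in the light chain differences was not tested.

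Across the 32 libraries, the genes whose log2 CPM was most like each chain were listed among 13520 genes with a mean of at least 1 CPM. The libraries share age and genotype, so these correlations describe a common course and carry no p. Myl1 was nearest to Casq1 (Pearson r = 0.993), Capzb (0.991) and Mylpf (0.991), and Mylpf to Myl1, Tpm1 (0.985) and Capzb (0.984). Myl2 was nearest to Myh7 (0.933), Tnnt1 (0.917) and Tpm3 (0.913), and Myl6b to Tnni1 (0.945), Tnnt1 (0.939) and Frem2 (0.926). Myl4 was nearest to Slc25a24 (0.969), Cttn (0.968) and Rassf7 (0.967). With the mean of each genotype and age removed, Myl1 and Mylpf still followed each other (r = 0.948, rho = 0.932, and r = 0.932 without the 2 libraries farthest from the median of Myl1), and Mylpf also followed Tnni2 (0.946) and Tnnc2 (0.938). Myl2 followed Tnnt1 (0.918), and among the members it followed Myl6b (r = 0.633, rho = 0.554, and 0.569 without the 2 farthest) and Myl3 (r = 0.492, rho = 0.735, and 0.600). Myl4 followed neither Myl6b (r = -0.0739) nor Myl2 (r = -0.27).

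Over the 32 libraries the genes nearest to Myl3 were Exoc3l (r = 0.791), Aplnr (0.740) and Hhex (0.708), and with group means removed they were Afdn (0.795), Aplnr (0.793) and Hhex (0.785). Aplnr encodes the apelin receptor, and it and Hhex are known from endothelial cells. In the 4 WT libraries of P35, Myl3 was at 7.08, 92.1, 132 and 87.5 CPM. Aplnr was at 18.4, 65.9, 83.8 and 93.4 CPM in the same libraries. The 4 endothelial markers (Pecam1, Cdh5, Kdr and Tek) summed to 293, 496, 515 and 552 CPM. Replicate 1 was lowest for all of these, and it was also lowest for Myl2. In the KO libraries of P35 the 4 endothelial markers summed to 255 to 322 CPM, and Myl3 was at 60.1 to 101 CPM. The part of endothelial RNA in Myl3 was not tested.

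**Figure D4:**
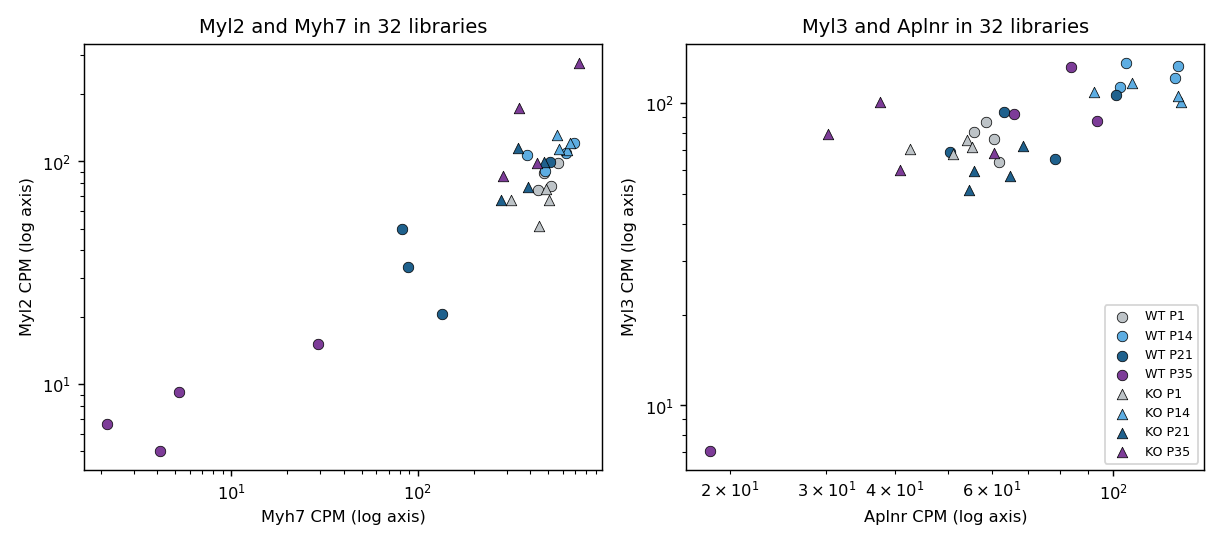
CPM (both axes log) of Myl2 against Myh7, the slow heavy chain, at left and of Myl3 against Aplnr at right, with 1 point per library, colours for age, circles for WT and triangles for Mtm1 KO. Myl2 and Myh7 are low together in WT at P35 and high together in KO at P35, and the WT P35 library with 7.08 CPM of Myl3 also has the least Aplnr, 18.4 CPM.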

How the data were processed

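TA muscle was sequenced from 32 libraries of poly(A) RNA (directional kit), 4 of each genotype at each of 4 ages. The authors deposited expected counts per gene. The submitters' processing notes name STAR 2.6.1, RSEM 1.2.22 and GRCm38, while the study's methods name another counter, HTSeq. The values are fractional in part, as RSEM gives them, and were rounded. The authors pooled no libraries.

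Genes were filtered with filterByExpr, scaled with TMM and tested two-sided with edgeR 4.0.16 (R 4.3.3, quasi-likelihood, Benjamini-Hochberg over all genes tested). KO versus WT was fitted on the 8 libraries of an age, each age step on the 16 libraries of a genotype, and interactions on all 32. Standard errors are the log2 fold change divided by the square root of F. Printed CPM use TMM over all 32 libraries. TMM factors ranged from 0.726 to 1.70 and were highest at P1, so age steps depend on them. DESeq2 1.42.0, other scalings, filters, thresholds, sample sets, a replicate block and leaving out each library were alternatives.

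Levels were divided by the union of exons. Motifs and likeness were computed in Python. The 6 members and the gene lists were chosen with earlier results of these data known. Named are the members, Mtm1, at most 4 list genes with the smallest adjusted p per list and age, and the 3 genes most like each member. At P35 more than 4 are named from the lists of light chain phosphorylation and of muscle transcription factors. The values of 1 list gene are not reported here. Replicate numbers paired WT with KO at P14 only (every correlation of deviations above 0.1, from 0.190 to 0.588), where the block changed no call. On simulated counts with the P21 libraries' means (15179 genes), 73.5% of genes changed by 1 and 93.8% of those changed by 2 (log2) were recovered. Recovery was 69.7% and 90.9% for the WT step from P1 to P14, and 55% and 86% for the interaction of P14 against P1. The lowest expected count of any member in any library was 139 (Myl4, WT P21).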

Additional observations from a re-analysis of the deposited data

Results flagged for a closer look

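In 2 cases a genotype difference changed between ages by a direct test. The Myl6b difference was larger at P21 than at P14 by 1.57 (log2), from 0.26 to 1.85, and every KO library lay above every WT library at P21. That call was at the edge and was lost in 27 of 32 fits without 1 library. The Myl2 difference was larger at P35 than at P21 by 3.32, from 0.83 to 4.16. Its call was lost in an edgeR fit of the P21 and P35 libraries only (adjusted p = 0.0247). In WT, Myl2 fell in this window, and in KO its 4 libraries went from 67.2 to 115 CPM at P21 to between 86.1 and 276 at P35.

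Of 48 groups of 4 libraries (6 genes in 8 groups), 3 had a library apart from the other 3 by Dixon's test, which flags about 1 group in 20 by chance. Both genes of the fast pair were low in the same WT P35 library, replicate 3, with 9228 CPM of Myl1 (the others held 13774 to 14664) and 8172 CPM of Mylpf (12355 to 13103). Mylpf was high in WT P1 replicate 2, at 4835 CPM against 3703 to 3818 in the others.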

How the results depend on the processing

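The counts of members called kept within 1.5 times their value except as follows, and the cause was not tested unless given. KO versus WT at P14 went from 1 to 0 with library totals and in 1 fit of all 32 libraries, and 0 to 1 without 1 library. At P21 it was 1 to 2 without 1 library. WT P14 versus P1 went from 3 to 5 in a fit of the 2 ages only. WT P35 versus P21 went from 2 to 1 with library totals and the replicate block, to 0 with 2 ages only, and was 1 to 2 without 1 library. KO P14 versus P1 went from 3 to 5, and KO P35 versus P21 from 0 to 2, at an adjusted p under 0.05 with no fold threshold, by construction. KO P35 versus P21 also went to 1 with DESeq2, library totals and all 32 libraries, and was 0 to 1 without 1 library. KO P21 versus P14 went from 1 to 0 with all 32. The interaction P21 against P14 went from 1 to 2 with DESeq2 and at adjusted p under 0.05, and to 0 with RLE factors, no filter, mitochondrial genes removed and the replicate block, and was 0 to 2 without 1 library. With library totals, and with 2 ages only, the count was 1, but the gene was Myl4 in place of Myl6b. Library totals moved the median of all genes by more than 0.1 in several comparisons, most in P14 versus P1 (from -0.0777 to -0.84 in WT). P35 against P21 went from 1 to 0 with 2 ages only. Apart from the interaction and WT P35 versus P21, the replicate block changed no count of members called.

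Of 894 recomputed log2 differences, 842 kept direction and side, 24 gained and 14 lost the call, and 14 changed sign, none of them called. With library totals these were, for KO versus WT, Myl4 at P1 (0.0125), Myl1 at P21 (0.0321) and P35 (0.0711) and Myl3 at P35 (0.38). Myl3 at P35 was also 0.00281 with at least 10 counts in every library and 0.36 with the replicate block. For age steps they were Myl3 (-0.0669) and Myl2 (-0.44) in WT P14 versus P1, Mylpf in WT P21 versus P14 (-0.14), Myl3 in KO P14 versus P1 (-0.15) and Myl6b in KO P35 versus P21 (0.0768). For interactions they were Myl1 (0.0535) P21 against P14, and Myl1 (0.0391) and Mylpf (0.12) P35 against P21.

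Leaving out 1 library turned the sign of 13 small differences. KO versus WT, they ranged from -0.0735 to 0.0626 (Myl4, P1) and -0.41 to 0.34 (Myl3, P35). In WT they ranged from -0.0183 to 0.13 (Mylpf) and -0.0867 to 0.0528 (Myl1) for P21 versus P14, and from -0.44 to 0.30 (Myl3), -0.13 to 0.0802 (Myl1) and -0.18 to 0.0470 (Mylpf) for P35 versus P21. In KO they ranged from -0.14 to 0.10 (Myl6b) and -0.0211 to 0.21 (Myl4) for P21 versus P14, and -0.31 to 0.0646 (Myl6b) for P35 versus P21. Interactions ranged from -0.0707 to 0.17 (Myl1) and -0.16 to 0.0676 (Mylpf) for P14 against P1, and -0.16 to 0.0358 (Myl1) for P21 against P14. With other gene lengths, no division by length (shares) or library totals (levels), of 144 recomputed each, 116 levels and 81 shares moved by more than 1 SD.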

Other observations

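The ratio of Mylpf to Myl1 counts within a library, which no scaling between libraries can move, was lower in KO than in WT at 2 ages without overlap. At P14 the log2 ratio was -0.21 ± 0.00811 (SD, n = 4) in WT and -0.25 ± 0.0288 in KO, with WT between -0.21 and -0.19 and KO between -0.28 and -0.22. At P21 it was -0.14 ± 0.0380 in WT and -0.33 ± 0.0749 in KO. At P35 it was -0.17 ± 0.0139 in WT and -0.28 ± 0.0952 in KO, and the groups touched. At P1 they overlapped widely. No test was run on this ratio, which was picked after the values were seen.

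The mean ratio of the slow chains Myl2 and Myl3 went opposite ways with age in the 2 genotypes. No test was run on this ratio, and its P21 and P35 libraries overlapped in both genotypes. In WT the log2 ratio of Myl2 to Myl3 counts was 0.14 ± 0.0815 in newborns (P1), -0.24 ± 0.166 by P14, -0.93 ± 0.756 by P21 and -2.66 ± 1.55 by P35. In KO it was -0.14 ± 0.200, 0.15 ± 0.0579, 0.55 ± 0.264 and 0.91 ± 0.486 at the same ages. Myh8, the perinatal heavy chain, was at 35.4 CPM in KO at P21 and 28.8 at P35, and Myl4 was at 31.6 ± 7.55 and 66.4 ± 38.1 CPM. The Myl4 libraries of these ages overlapped, and its step was not called by edgeR (adjusted p = 0.0162). Myh3, the embryonic heavy chain, had 21.9, 34.1, 39.7 and 21.0 CPM in KO at P21. At P35 it had 75.5, 142, 79.9 and 47.8 CPM.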
